A study of Mus musculus with 9 samples.

Results

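The 10 genes described here belong to the BCL2 family: Bcl2, Bcl2l1, Mcl1, Bax, Bak1, Bcl2l11, Bbc3, Pmaip1, Bid and Bmf. They were chosen by name from the 55450 genes of the count table, and all 10 passed the filter on low counts that left 19357 genes to test. RNA was sequenced from EYFP+ live cells sorted by FACS from the mammary glands of adult nulliparous mice of 3 genotypes, with 3 libraries each. Every mouse carried K8CreERT2, a tamoxifen-inducible Cre driven by the Krt8 promoter of luminal cells, and lsl-EYFP, a reporter that Cre switches on, and every mouse received 2 mg of tamoxifen on 5 days and was collected 7 days after the last dose according to the labels. Control mice were lsl-EYFP;K8CreERT2 with no floxed gene. The second genotype carried LATS1/2f/f in addition, so that Cre removes parts of the genes of LATS1 and LATS2, the kinases that restrain YAP and TAZ in the Hippo pathway (libraries labelled LATS1/2-KO). The third carried LATS1/2f/f and also Sox9f/f, with the gene of the transcription factor SOX9 floxed (libraries labelled LATS1/2-Sox9-KO). Since EYFP marks only cells in which Cre acted, cells that escaped recombination of the reporter were not sampled, and EYFP does not show that the other floxed genes were recombined in the same cell. Total counts per library ran from 44167762 to 61967651. Nothing in the labels or methods says whether the 3 libraries of a group came from separate mice or pools, so p-values measure the spread between these libraries.

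BCL2 family proteins decide whether the outer membrane of the mitochondrion is opened in apoptosis. Prosurvival members (BCL2, BCL-XL from Bcl2l1, MCL1) bind and hold the effectors BAX and BAK, which form the pores that release cytochrome c. BH3-only members respond to stress: BIM (Bcl2l11), PUMA (Bbc3), NOXA (Pmaip1), BID and BMF bind the prosurvival proteins, and some also activate the effectors directly. In the mammary gland the family is best known for the death of luminal cells during duct hollowing and involution, in which BIM and BMF take part, and MCL1 is required for the survival of mammary epithelium. Much of the family's control acts on proteins (turnover, cleavage and binding), which RNA counts do not show.

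The targeted genes were read first, as a check of the labels. Lats1 had normalized counts of 5672, 5929 and 5940 in control, 2090, 1923 and 2336 in libraries labelled LATS1/2-KO and 2058, 1844 and 1709 in those labelled LATS1/2-Sox9-KO, where each count was rescaled to a common library size, the mean over all 9 libraries. Lats2 had 1039, 865.2 and 1220 in control against 1256, 1434 and 1723 and then 1957, 1580 and 1240, so it was not lower in either deletion genotype (log2 fold change 0.50, adjusted p = 0.0571, and 0.61, adjusted p = 0.024, edgeR), also without the library of each group that stands apart. The counts sum all exons of a gene, and deleted exons were not examined. Sox9 was already lower than control in libraries labelled LATS1/2-KO (log2 fold change -1.15, edgeR adjusted p = 6.82e-04), and it differed between the deletion genotypes by -0.40 (95% interval -0.83 to 0.03, edgeR adjusted p = 0.25). For this reason the deletion libraries are named by their labels throughout.

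The sorted cells expressed luminal keratins in every library, with Krt8 from 168800 to 216000 normalized counts in control and from 265200 to 461300 in the deletion libraries. Compared with control the 7 luminal markers split, with 2 higher (Krt8, Krt18) and 3 lower (Krt19, Epcam, Cdh1) in libraries labelled LATS1/2-KO and 3 higher (Krt8, Krt18, Cldn3) and 1 lower (Epcam) in those labelled LATS1/2-Sox9-KO. Epcam, the epithelial adhesion gene, went from 125300, 119800 and 107600 normalized counts in control to 64970, 73110 and 72850 and to 49440, 44460 and 49510 (log2 fold changes -0.74 and -1.30, edgeR adjusted p = 2.15e-04 and 6.18e-06), and Krt19 was 2.04-fold lower in libraries labelled LATS1/2-KO (edgeR adjusted p = 0.00418). Of 6 markers of hormone-sensing luminal cells 5 were lower than control in both deletion genotypes, and the summed count of the 6 went from between 230800 and 291500 in control to between 15520 and 62320, with Prlr, the prolactin receptor, as the most abundant of them in control. The sixth, Ly6a, was at -0.24 in libraries labelled LATS1/2-KO (edgeR adjusted p = 0.6) and rose from 6611, 11180 and 17080 normalized counts in control to 57360, 44240 and 34800 in those labelled LATS1/2-Sox9-KO (3.91-fold, edgeR adjusted p = 0.00123), where it made up most of the sum. Of 5 luminal progenitor markers 1 was lower in libraries labelled LATS1/2-KO (Csn3) and 4 were lower past 2-fold in those labelled LATS1/2-Sox9-KO (Kit, Elf5, Cd14, Csn3), with a median log2 fold change of -1.45 in the latter and sums of 107300, 110200 and 63320 in control.

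The 8 basal and myoepithelial markers summed to between 4658 and 5662 in control and between 156100 and 386900 in the deletion libraries, most of it Krt14. In libraries labelled LATS1/2-KO 3 of the 8 were higher (Krt14, Krt17, Acta2) and 3 lower (Trp63, Myh11, Mylk), each past 2-fold, with mean normalized counts of Krt17 from 310 to 4950, of Acta2 from 876.2 to 11570, of Myh11 from 645.7 to 139 and of Mylk from 281 to 73.02. Of the defining basal genes, Krt5 was at a log2 fold change of 0.06 (edgeR adjusted p = 0.935) and Trp63 fell by 4.82 (edgeR adjusted p = 2.91e-04) in libraries labelled LATS1/2-KO. In those labelled LATS1/2-Sox9-KO all 8 basal markers passed, 4 higher and 4 lower, with Krt5 at 472.5, 2162 and 1579 against 557.9, 485.4 and 353.5 in control (3.02-fold, edgeR adjusted p = 0.0298, with overlap) and Trp63 at a log2 fold change of -4.19 (edgeR adjusted p = 5.03e-04). The 4 adipocyte markers summed to at most 12.47 in control and from 7.02 to 821 in the deletion libraries. Cidec had the highest mean of them in both deletion genotypes, and Adipoq, Lep and Cidec passed as higher in both. Adipoq and Cidec overlapped with control, since replicate 1 of each deletion genotype was at control level. Adipoq had 2.006 (LATS1/2-KO) and 0.9283 (LATS1/2-Sox9-KO) there, against up to 3.734 in control, and Cidec had 0 in both. The 6 endothelial markers summed to at most 772.2 in any library. Of these Kdr was higher in both deletion genotypes (mean 25.33 in control, 136.3 and 261.3), and Tek was lower in libraries labelled LATS1/2-Sox9-KO (17.69) than in control (49.6) and in those labelled LATS1/2-KO (85.89). Of 7 fibroblast markers 3 were higher (Lum, Col1a1, Col3a1) and 1 lower (Dcn) in libraries labelled LATS1/2-KO, and 2 higher (Col1a1, Col3a1) and 2 lower (Dcn, Pdgfra) in those labelled LATS1/2-Sox9-KO, with sums from 2411 to 9454 in control and from 2394 to 8427 in the deletion libraries. Dcn, the most abundant of them in control, went from a mean of 4360 to 923.3 and 157.5. Col3a1 (2006 and 1880) and Col1a1 (1166 and 1614) had higher means than Dcn in the deletion genotypes. The 3 pericyte markers summed to between 16810 and 21830 in control and between 1619 and 4130 in the deletion libraries, nearly all of it Notch3. This sum therefore describes 1 gene and gives no level of pericytes. Rgs5 and Cspg4 had means of only 144.2 and 4.729 in control. Rgs5 was lower with Notch3 in both deletion genotypes, and Cspg4 was higher in libraries labelled LATS1/2-KO. The 12 immune markers summed to between 807.7 and 1188 in control and between 2116 and 4858 in the deletion libraries. In the deletion libraries most of this immune sum was Csf1r, which was higher in both genotypes, as was Adgre1 in libraries labelled LATS1/2-Sox9-KO, while Ptprc, the pan-leukocyte marker, stayed at or below 166.5, and Cd3e and Ms4a1 were at 0 in every library. Markers also differed between the deletion genotypes. The 5 luminal progenitor markers summed to 43750, 38060 and 38520 in libraries labelled LATS1/2-Sox9-KO against 68260, 98780 and 72870 in those labelled LATS1/2-KO, with Cd14 and Csn3 lower past 2-fold. Ly6a was 4.62-fold and the keratin gene Krt17 6.78-fold higher (edgeR adjusted p = 0.0129 and 0.00147), but their lists split. Of the 8 basal and myoepithelial markers 1 was higher (Krt17) and 2 lower past 2-fold, with mean Acta2 from 11570 to 4587 and Oxtr from 498.9 to 85.52. Of the 6 hormone-sensing markers 1 was higher (Ly6a) and 1 lower past 2-fold, and of the 7 luminal markers 2 were higher and 1 lower. These marker shifts move with every BCL2 family difference given here, from control and between the deletion genotypes, and their part in those differences was not tested. In RNA from many cells, fewer cells of a type and less RNA per cell cannot be told apart.

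Within each group of 3, a library stood apart from the other pair. Control replicate 3 had a sum of luminal progenitor markers of 63320 (107300 and 110200 in the others) and of fibroblast markers of 9454 (2411 and 4255). Its counts differed from those of controls 1 and 2 with a chi-square per gene of 119 and 104, against 26.9 between those 2 libraries. Replicate 1 labelled LATS1/2-KO (129 and 87.9 against 59) and replicate 1 labelled LATS1/2-Sox9-KO (78.9 and 111 against 16.4) stood apart in the same way. For the members, the value without one of these 3 libraries is given with the gene where a call against control changed or the log2 fold change in a called comparison moved by more than 0.2. Of the 77 tested genes in the other lists, 50 passed in libraries labelled LATS1/2-KO against control, of which 0 were lost and 5 gained without control replicate 3 and 2 were lost and 3 gained without replicate 1 labelled LATS1/2-KO. In libraries labelled LATS1/2-Sox9-KO 52 passed, of which 2 were lost and 5 gained without control replicate 3 and 1 was lost and 2 gained without replicate 1 of that genotype. In the comparison of the deletion genotypes 3 of the 77 passed, and 8 were gained and 1 lost without replicate 1 labelled LATS1/2-KO, against 1 gained and 2 lost without replicate 1 labelled LATS1/2-Sox9-KO. None of the calls that held in these analyses turned its direction.

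Of the 10 members, 9 differed between libraries labelled LATS1/2-KO and control, 6 of them higher (Bcl2l1, Bax, Bak1, Bbc3, Pmaip1, Bid) and 3 lower (Mcl1, Bcl2l11, Bmf), at an adjusted p of at most 0.05 (quasi-likelihood test of edgeR, Benjamini-Hochberg adjustment over all genes). Bcl2 did not pass. Across all genes tested, 55.7% passed in this comparison (28.7% higher and 27.1% lower), so that passing was common in this comparison. The members' median log2 fold change was 0.84, and that of all genes was 0.04. With a 2-fold change also required, 4 members were higher and 2 lower, against 34.6% of all genes (17.1% higher and 17.5% lower). With an offset for GC content that split became 6 higher and 1 lower, since Bax and Bbc3 then passed 2-fold and Bmf did not. In libraries labelled LATS1/2-Sox9-KO against the same control libraries, 6 were again higher and 3 lower, with a median of 1.12 against 0.01 for all genes, where 57.9% of all genes passed (29.3% higher and 28.7% lower). The 2-fold rule then held for 5 higher and 2 lower members, against 37.4% of all genes (17.8% higher and 19.6% lower). For 9 of the 10 members the libraries of the groups did not overlap in either comparison with control, as was so for 61.6% and 68.8% of all genes. Both comparisons share their control libraries and are therefore set side by side without a measure of likeness. Between the deletion genotypes, 3 members were higher (Bak1, Pmaip1, Bid) and 1 lower (Bmf) in libraries labelled LATS1/2-Sox9-KO, where 6.45% of all genes passed (3.13% higher and 3.33% lower). Past 2-fold there were 1 higher member (Pmaip1) and 1 lower (Bmf), against 3.71% of all genes (1.55% and 2.16%), and the libraries of 6 members did not overlap, against 27.9%. The direction differed within roles, with members that rose and members that fell among both the prosurvival and the BH3-only genes.

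**Figure D1:**
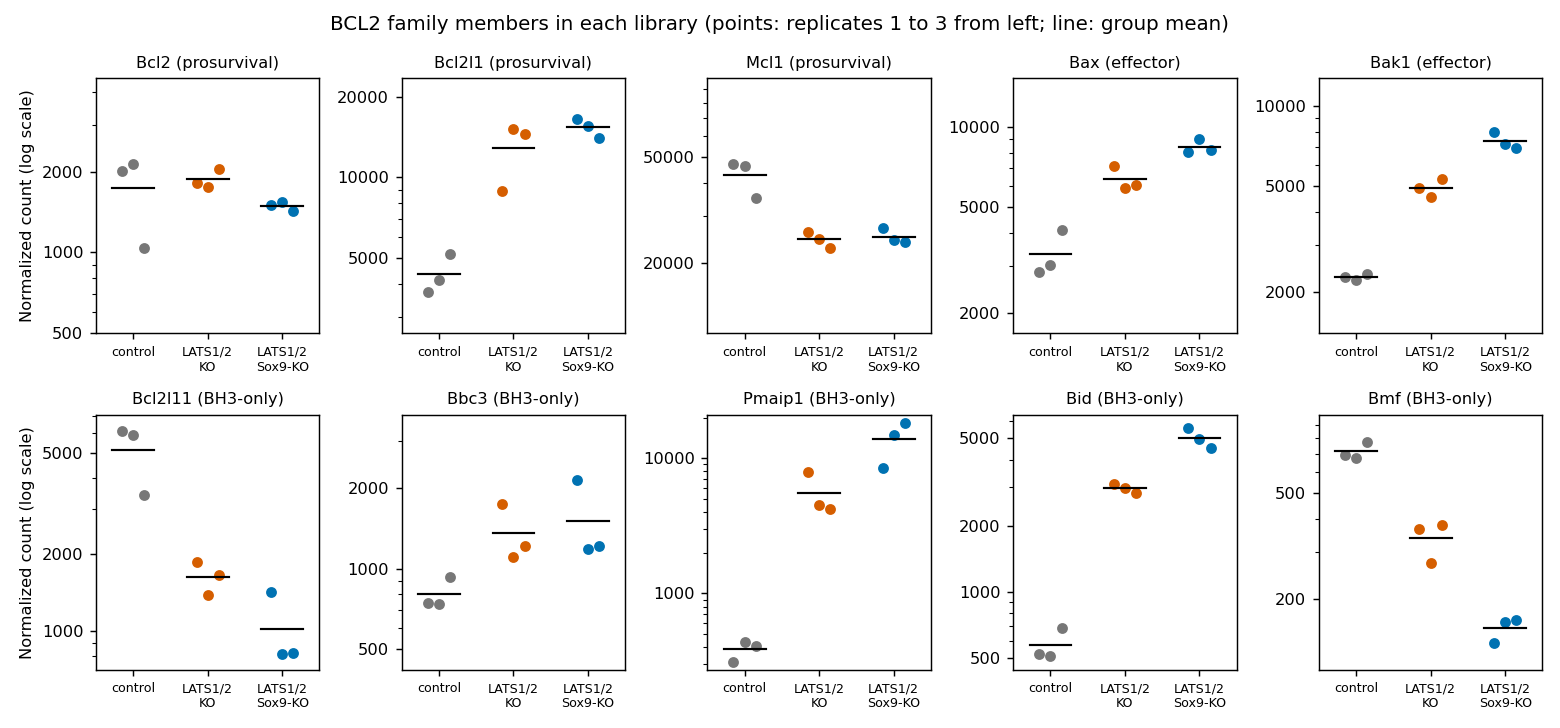
Normalized counts (y, log scale) of the 10 BCL2 family members in each of the 9 libraries, grouped by label on the x axis, with points for replicates 1 to 3 from left to right and a line at the group mean. Pmaip1 and Bid lie higher and Bcl2l11 and Bmf lower in all deletion libraries than in any control library, while the Bcl2 groups overlap with control.

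Levels between genes were compared per kb of exon. In control, Mcl1 was the most abundant member at 12540 ± 1971 normalized counts per kb (SD, n = 3), followed by Bax at 2115 ± 435. Bak1 (949.5 ± 22.4) and Bcl2l1 (944.9 ± 165) came next and differed by less than their spread, before Bcl2l11 at 639.9 ± 186 and Bbc3 at 377.9 ± 51.9 per kb. Bcl2 (189.7 ± 66.4), Bid (160.9 ± 28.3), Pmaip1 (141.5 ± 24.1) and Bmf (136.4 ± 10.5) formed the low end, and each of these neighbours lay within 1 SD of the next. In libraries labelled LATS1/2-KO, Mcl1 was still first at 7196 ± 489 per kb and Bax second at 4038 ± 426, whereas Pmaip1 stood at 2038 ± 764, level with Bak1 at 2054 ± 155. In those labelled LATS1/2-Sox9-KO, Pmaip1 reached 5052 ± 1807 per kb, within its own spread of Bax at 5338 ± 317 and below Mcl1 at 7348 ± 498. Bmf was last in all 3 groups, at 64.6 ± 11.2 and 29.7 ± 3.21 per kb in the deletion genotypes. Pmaip1 thus moved from the second lowest place by mean in control to the third highest in libraries labelled LATS1/2-Sox9-KO.

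Among the prosurvival genes, Bcl2l1 rose and Mcl1 fell. The promoters of both are shown because each holds GGAATG or its reverse complement, the letters bound by the TEAD partners of YAP and TAZ. The 250 bases before the RefSeq start site (GRCm38.p6) are given 5′ to 3′ on the strand of the gene, with the match in capitals, for Bcl2l1 at chr2:152831729-152831978 (minus strand) and Mcl1 at chr3:95658471-95658720 (plus strand, match on the opposite strand).
Bcl2l1: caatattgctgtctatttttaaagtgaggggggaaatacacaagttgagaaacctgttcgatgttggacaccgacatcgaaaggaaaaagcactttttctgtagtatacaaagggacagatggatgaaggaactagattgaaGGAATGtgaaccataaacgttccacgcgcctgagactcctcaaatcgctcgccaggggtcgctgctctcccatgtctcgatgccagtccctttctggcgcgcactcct
Mcl1: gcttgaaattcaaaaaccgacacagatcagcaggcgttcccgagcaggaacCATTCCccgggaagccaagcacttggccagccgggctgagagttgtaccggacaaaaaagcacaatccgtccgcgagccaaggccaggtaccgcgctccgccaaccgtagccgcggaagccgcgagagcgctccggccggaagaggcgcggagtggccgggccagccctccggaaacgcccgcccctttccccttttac
These letters, searched on both strands in windows from 250 bases before to 50 after a start, occurred in 2 of the 16 windows of the 9 members that had any, and in 14.7% of all 32851 windows. TGANTCA, the AP-1 letters, occurred in none of the 16 and in 7.8% of all windows. A match describes the letters of the window and shows no binding.

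Bcl2l1 (chr2:152780668-152831728, minus strand) had normalized counts of 3709, 4116 and 5174 in control. It had 8901, 15170 and 14510 in libraries labelled LATS1/2-KO and 16560, 15660 and 14090 in those labelled LATS1/2-Sox9-KO. Every deletion library was above every control library, and replicate 1 labelled LATS1/2-KO was the lowest of the deletion libraries. The gene was 2.97-fold higher than control in libraries labelled LATS1/2-KO (log2 fold change 1.57 ± 0.20 SE, edgeR adjusted p = 1.33e-04) and 3.56-fold higher in those labelled LATS1/2-Sox9-KO (1.83 ± 0.21, edgeR adjusted p = 4.41e-05). Without replicate 1 labelled LATS1/2-KO the first value was 1.78. The deletion genotypes overlapped, with a difference of 0.26 (95% interval -0.18 to 0.71, edgeR adjusted p = 0.482). The counts do not separate the transcript of BCL-XL from shorter isoforms of Bcl2l1.

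Mcl1 (chr3:95658788-95663176, plus strand), whose protein is short-lived and selectively bound by NOXA, had normalized counts of 47180, 46280 and 35080 in control. The values were 26190, 24740 and 22860 in libraries labelled LATS1/2-KO and 27070, 24340 and 23940 in those labelled LATS1/2-Sox9-KO. All 6 deletion libraries lay below the lowest control library, which was control replicate 3. The log2 fold changes were -0.80 (edgeR adjusted p = 5.26e-04) and -0.77 (edgeR adjusted p = 5.9e-04), a fall of 1.74-fold and 1.71-fold, and without control replicate 3 they were -0.94 and -0.89. Between the deletion genotypes the difference was 0.03 (95% interval -0.26 to 0.32, edgeR adjusted p = 0.922).

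Bcl2 (chr1:106538178-106714274, minus strand), the founding member of the family, had normalized counts of 2019, 2153 and 1039 in control. The libraries labelled LATS1/2-KO had 1822, 1762 and 2053, and those labelled LATS1/2-Sox9-KO had 1499, 1548 and 1431. Control replicate 3 was the lowest of all 9 libraries, and the groups overlapped with control. The log2 fold changes from control were 0.11 (95% interval -0.40 to 0.63, edgeR adjusted p = 0.701) and -0.22 (-0.73 to 0.29, edgeR adjusted p = 0.441). Without control replicate 3 they were -0.16 (edgeR adjusted p = 0.297) and -0.48 (edgeR adjusted p = 0.00964), so the call for Bcl2 in libraries labelled LATS1/2-Sox9-KO depended on that library. The deletion genotypes did not overlap, but their difference of -0.33 did not pass (95% interval -0.85 to 0.18, edgeR adjusted p = 0.437).

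Per kb, Mcl1 made up 91.5% ± 2.04 of the summed count of the 3 prosurvival genes in control, 70.7% ± 6.53 in libraries labelled LATS1/2-KO and 67.6% ± 0.973 in those labelled LATS1/2-Sox9-KO (SD, n = 3). The share of Bcl2l1 went from 7.13% ± 2.35 to 27.3% ± 6.53 and 30.9% ± 0.938. The ratio of Mcl1 to Bcl2l1 per kb was 17.1, 15.1 and 9.10 in the controls, 3.95, 2.19 and 2.11 in libraries labelled LATS1/2-KO and 2.19, 2.09 and 2.28 in those labelled LATS1/2-Sox9-KO. The ratios of control and deletion libraries did not overlap, and control replicate 3 was the control nearest to them. Mcl1 remained the largest of the 3 in all 9 libraries.

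Both effector genes rose. Bax (chr7:45461697-45466898, minus strand), whose product moves from the cytosol to mitochondria, had normalized counts of 2843, 3040 and 4116 in control. The counts were 7134, 5910 and 6046 in libraries labelled LATS1/2-KO and 8063, 8985 and 8189 in those labelled LATS1/2-Sox9-KO. The 3 groups did not overlap, with control replicate 3 the highest control. Against control the log2 fold changes were 0.93 ± 0.15 SE (1.91-fold, edgeR adjusted p = 4.69e-04) and 1.34 ± 0.15 (2.52-fold, edgeR adjusted p = 4.38e-05), and without control replicate 3 they were 1.10 and 1.52. The difference between the deletion genotypes was 0.40 (95% interval 0.07 to 0.73) and did not pass (edgeR adjusted p = 0.139), though it did without control replicate 3 (0.42, edgeR adjusted p = 0.0423).

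Bak1 (chr17:27019810-27029009, minus strand), the effector that resides on the mitochondrial membrane, had the smallest spread of the members in control, with normalized counts of 2279, 2235 and 2342. It had 4944, 4570 and 5314 in libraries labelled LATS1/2-KO and 7997, 7198 and 6951 in those labelled LATS1/2-Sox9-KO. No group overlapped with another. The log2 fold changes against control were 1.11 ± 0.10 SE (2.16-fold, edgeR adjusted p = 1.53e-05) and 1.69 ± 0.10 (3.23-fold, edgeR adjusted p = 1.37e-06). Bak1 was also higher in libraries labelled LATS1/2-Sox9-KO than in those labelled LATS1/2-KO, by 0.58 ± 0.10 (1.49-fold, edgeR adjusted p = 0.0132). Bak1 shares 614 exon bases with Ggnbp1 on the opposite strand, a gene with few counts.

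Set against each other per kb, the summed prosurvival genes exceeded the summed effectors by a ratio of 5.39, 5.14 and 3.21 in the controls. The ratio was 1.49, 1.90 and 1.67 in libraries labelled LATS1/2-KO and 1.39, 1.23 and 1.27 in those labelled LATS1/2-Sox9-KO. The 3 groups did not overlap, and control replicate 3 was again the control closest to the deletion libraries. A ratio of RNA levels gives no measure of the proteins or of their binding.

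The 5 BH3-only genes split, with Pmaip1, Bid and Bbc3 higher and Bcl2l11 and Bmf lower in both deletion genotypes than in control. Pmaip1, on chromosome 18, encodes NOXA, a BH3-only protein that pairs with MCL1 and is a known target of p53. Its normalized counts were 313.2, 440 and 407 in control. They were 7973, 4492 and 4239 in libraries labelled LATS1/2-KO and 8435, 14830 and 18150 in those labelled LATS1/2-Sox9-KO. Every deletion library was far above every control library, and the spread within the deletion genotypes was wide. Pmaip1 was 14.4-fold higher in libraries labelled LATS1/2-KO (log2 fold change 3.85 ± 0.34 SE, edgeR adjusted p = 1.45e-05) and 35.7-fold higher in those labelled LATS1/2-Sox9-KO (5.16 ± 0.36, edgeR adjusted p = 2.97e-06), the largest change of any of the 10 members in both comparisons. Without replicate 1 labelled LATS1/2-KO the first value was 3.50, and without replicate 1 labelled LATS1/2-Sox9-KO the second was 5.43. The deletion genotypes differed by 1.31 (95% interval 0.62 to 2.00, edgeR adjusted p = 0.0363) without overlap, and by 1.66 and 1.6 without replicate 1 labelled LATS1/2-KO or LATS1/2-Sox9-KO. This call was lost in 8 of 19 other analyses, with adjusted p-values from 6.34e-04 to 0.121 over the alternatives run in edgeR and DESeq2, and libraries labelled LATS1/2-KO replicate 2 or 3 and LATS1/2-Sox9-KO replicate 2 or 3 were each needed for it (edgeR adjusted p = 0.0971, 0.121, 0.107 and 0.0993 without them), as was control replicate 2 (edgeR adjusted p = 0.0567).

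Bid (chr6:120891930-120916853, minus strand) encodes the protein that caspase-8 cleaves to link death receptors with mitochondria. It had normalized counts of 518.5, 508 and 687 in control, 3083, 2974 and 2825 in libraries labelled LATS1/2-KO and 5544, 4942 and 4506 in those labelled LATS1/2-Sox9-KO. The 3 groups were widely separated, and the libraries within a group lay close together. The log2 fold changes against control were 2.37 ± 0.15 SE (5.18-fold, edgeR adjusted p = 2.53e-06) and 3.13 ± 0.15 (8.75-fold, edgeR adjusted p = 4.92e-07). Between the deletion genotypes Bid was 1.69-fold higher in libraries labelled LATS1/2-Sox9-KO (0.76 ± 0.14, edgeR adjusted p = 0.0153). That difference did not pass without replicate 3 labelled LATS1/2-KO (edgeR adjusted p = 0.0618) or without replicate 2 labelled LATS1/2-Sox9-KO (edgeR adjusted p = 0.0568). Bid shares 628 exon bases with Bcl2l13 on the opposite strand, and Bcl2l13 did not pass in the same comparisons with control (log2 fold change -0.22, adjusted p = 0.123, and -0.06, adjusted p = 0.649, edgeR), though it passed as lower in the first without control replicate 3 (-0.33, edgeR adjusted p = 0.0253).

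The promoters of Bcl2l11 and Bbc3 hold GTAAACA or its reverse complement, the letters of FOXO factors, and are shown because FOXO proteins are known inducers of both genes, which moved in opposite directions here. The 250 bases before a RefSeq start are given as for the prosurvival genes, for Bcl2l11 at chr2:128125788-128126037 (plus strand) and Bbc3 at chr7:16310011-16310260 (plus strand, match on the opposite strand), with the match in capitals.
Bcl2l11: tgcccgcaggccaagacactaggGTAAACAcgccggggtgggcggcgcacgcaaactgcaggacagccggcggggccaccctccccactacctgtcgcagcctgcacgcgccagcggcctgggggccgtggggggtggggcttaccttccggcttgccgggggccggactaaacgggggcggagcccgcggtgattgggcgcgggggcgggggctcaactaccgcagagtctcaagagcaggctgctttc
Bbc3: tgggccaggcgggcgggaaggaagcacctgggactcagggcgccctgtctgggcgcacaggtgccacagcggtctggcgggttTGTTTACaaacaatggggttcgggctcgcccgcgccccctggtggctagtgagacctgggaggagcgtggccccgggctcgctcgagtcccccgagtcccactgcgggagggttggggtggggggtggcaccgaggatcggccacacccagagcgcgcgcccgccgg
These letters occurred in 2 of the 16 windows of members and in 3.6% of all windows, and the GC content of the printed bases was 72% and 72.4%.

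Bcl2l11 (chr2:128126038-128162547, plus strand) encodes BIM, which binds every prosurvival member. It had normalized counts of 6128, 5862 and 3424 in control, 1866, 1384 and 1656 in libraries labelled LATS1/2-KO and 1421, 809.1 and 816.1 in those labelled LATS1/2-Sox9-KO. Control replicate 3 lay well below the other controls but above every deletion library. The gene fell by 1.65 (edgeR adjusted p = 6.28e-04) and by 2.34 (edgeR adjusted p = 6.98e-05) on the log2 scale, 3.14-fold and 5.06-fold. Without control replicate 3 the values were -1.89 and -2.55, and without replicate 1 labelled LATS1/2-Sox9-KO the second was -2.64. The deletion genotypes overlapped and differed by -0.69 (95% interval -1.29 to -0.08, edgeR adjusted p = 0.166).

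Bmf (chr2:118528757-118549687, minus strand), whose product binds dynein light chain 2 on the actin cytoskeleton and is known for its part in the death of detached epithelial cells, had normalized counts of 694.8, 675.9 and 779.1 in control. It had 366.1, 272 and 380.3 in libraries labelled LATS1/2-KO and 136.5, 164.4 and 166.7 in those labelled LATS1/2-Sox9-KO. The groups formed 3 separate steps. Bmf was 2.11-fold lower than control in libraries labelled LATS1/2-KO (log2 fold change -1.08 ± 0.19 SE, edgeR adjusted p = 8.58e-04) and 4.60-fold lower in those labelled LATS1/2-Sox9-KO (-2.20 ± 0.20, edgeR adjusted p = 1.05e-05). It was the only member that passed as lower in libraries labelled LATS1/2-Sox9-KO than in those labelled LATS1/2-KO (-1.12, 95% interval -1.55 to -0.69, edgeR adjusted p = 0.0129), a call that did not hold without replicate 2 labelled LATS1/2-Sox9-KO (-1.13, edgeR adjusted p = 0.0568).

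Bbc3 (chr7:16308393-16318205, plus strand) encodes PUMA, another target of p53 that binds all prosurvival members. Its normalized counts were 744.6, 733.7 and 929.7 in control, 1745, 1105 and 1218 in libraries labelled LATS1/2-KO and 2138, 1180 and 1217 in those labelled LATS1/2-Sox9-KO. Replicate 1 was the highest library in both deletion genotypes, and no deletion library reached down to control. The log2 fold changes were 0.76 (1.69-fold, edgeR adjusted p = 0.0303) and 0.91 (1.88-fold, edgeR adjusted p = 0.0121), the smallest rises among the 6 members that rose. The first did not pass without control replicate 1 or 2 (edgeR adjusted p = 0.087 and 0.0939) or without replicate 1 labelled LATS1/2-KO (0.54, edgeR adjusted p = 0.103), and the second was 0.60 without replicate 1 labelled LATS1/2-Sox9-KO (edgeR adjusted p = 0.0367). Between the deletion genotypes the difference was 0.16 (95% interval -0.42 to 0.73, edgeR adjusted p = 0.773).

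**Figure D2:**
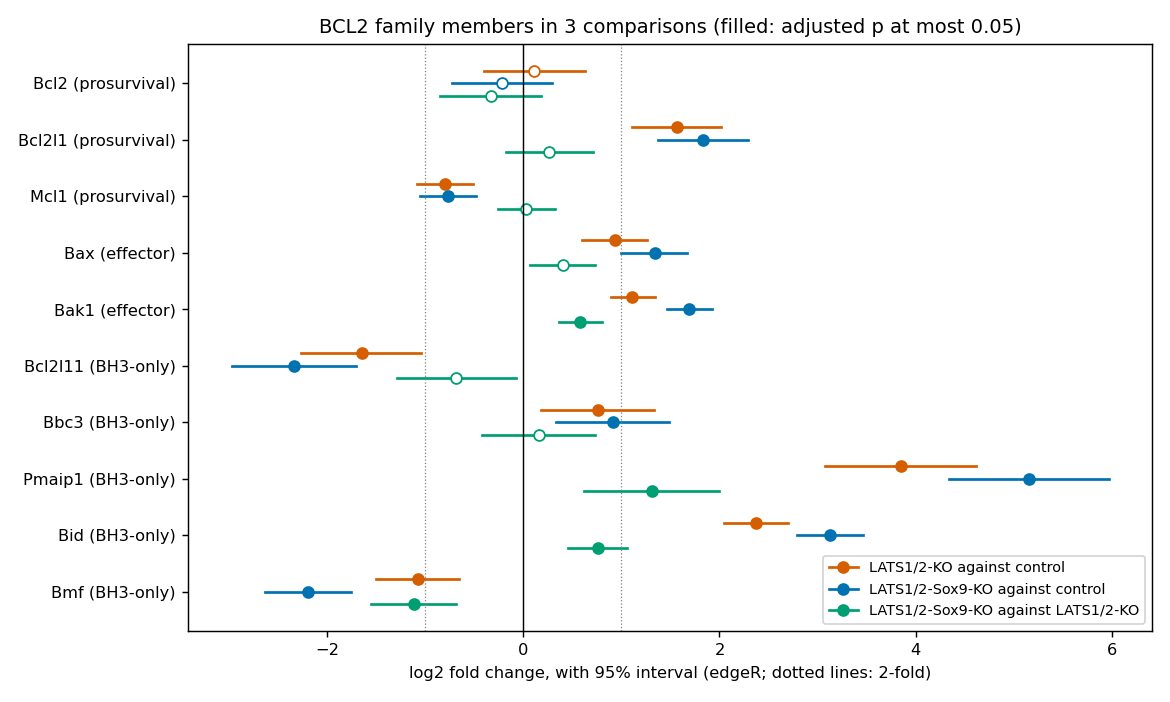
Log2 fold change (x) of each member (y) with its 95% interval in the 3 comparisons, from edgeR, with filled points at an adjusted p of at most 0.05 and dotted lines at 2-fold. Pmaip1 has the largest values (3.85 and 5.16 against control), and between the deletion genotypes filled points are seen for Bak1, Pmaip1, Bid and Bmf.

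The composition of the 5 BH3-only members differed between control and deletion libraries. Per kb, Bcl2l11 held 43.5% ± 10.5 of the summed count of these 5 genes in control, 5.51% ± 0.869 in libraries labelled LATS1/2-KO and 1.85% ± 1.02 in those labelled LATS1/2-Sox9-KO (SD, n = 3). The share of Pmaip1 went from 9.76% ± 1.87 to 53% ± 5.74 and 67.4% ± 12.9. Bid went from 11.2% ± 2.71 to 22.8% ± 4.50 and 19.97% ± 6.09, and Bbc3 from 26.2% ± 5.33 to 16.9% ± 0.915 and 10.4% ± 5.88, so that Bbc3 took a smaller share although its count was higher. The 5 genes together went from 1457 ± 88.1 per kb in control to 3779 ± 980 and 7329 ± 1389. Relative to these sums the 3 prosurvival members stood at 9.84, 9.73 and 8.49 in the controls, at 2.00, 3.33 and 3.15 in libraries labelled LATS1/2-KO and at 2.00, 1.43 and 1.19 in those labelled LATS1/2-Sox9-KO. The controls were separate from the deletion libraries in this ratio, and replicate 1 of the 2 deletion genotypes coincided. These shares depend on which genes are summed. In control Bik (1231 ± 127 per kb) was above Bcl2l11, and Bad (800.2 ± 107) was above it by mean but not in every library. As shares of all 8 listed BH3-only genes, Bad and Bcl2l11 held 21.07% and 22.24% in control replicate 1 and 20.78% and 20.09% in control replicate 2. In control replicate 3, the library that stood apart, they held 27.15% and 12.55%. Over all 8 listed BH3-only genes, with Bik, Bad and Hrk added after the values were seen, Bcl2l11 held 18.3% ± 5.09 in control, 3.73% ± 0.446 in libraries labelled LATS1/2-KO and 1.51% ± 0.766 in those labelled LATS1/2-Sox9-KO. Pmaip1 then went from 4.05% ± 0.616 to 36.3% ± 7.57 and 56.2% ± 12.8, while Bik, the largest of the 8 in control at 35.2% ± 2.38, went to 13.6% ± 4.04 and 6.03% ± 2.45. The sum of the 8 went from 3488 ± 128 per kb to 5490 ± 861 and 8792 ± 1323, a smaller rise than that of the 5 members. The 8 listed prosurvival genes stood at 4.76, 4.42 and 3.80 relative to it in the controls, at 1.63, 2.27 and 2.25 in libraries labelled LATS1/2-KO and at 1.67, 1.27 and 1.09 in those labelled LATS1/2-Sox9-KO. The controls were again separate from the deletion libraries but at lower ratios than over the members alone, and the deletion genotypes overlapped.

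**Figure D3:**
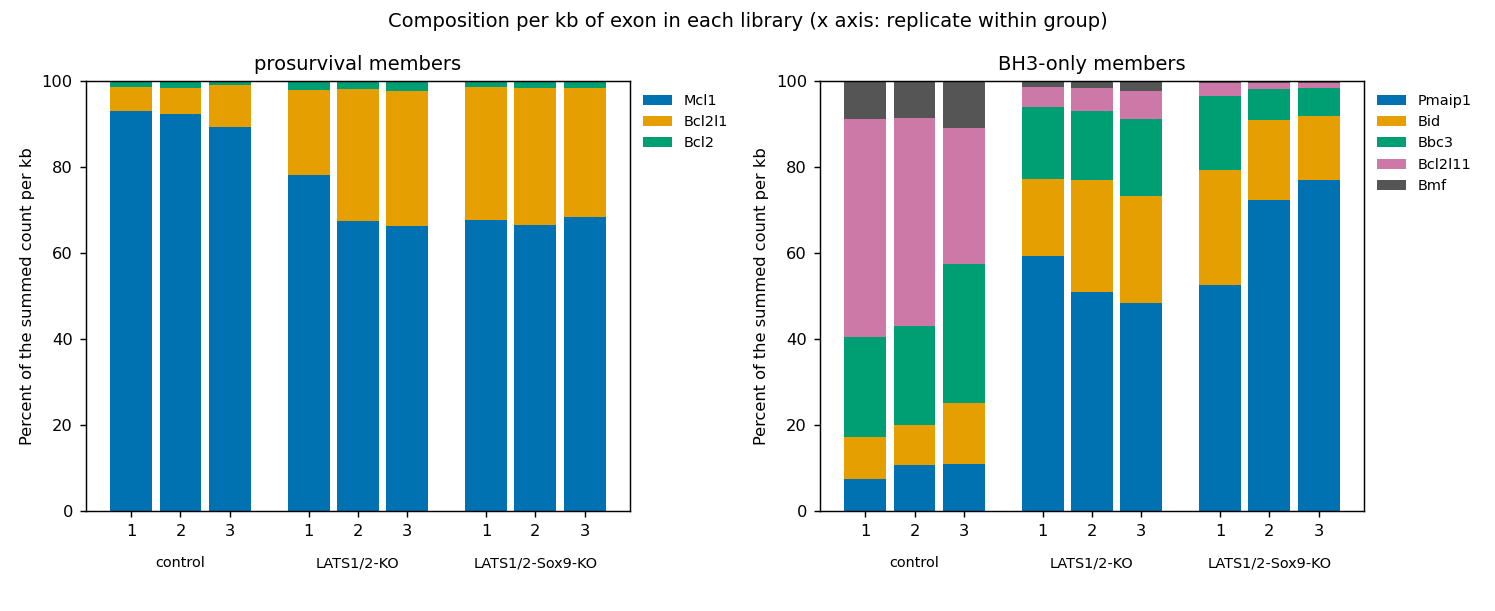
Share (y, percent) of each prosurvival member (left) and each BH3-only member (right) in the summed count per kb of exon of the members of its role, with 1 stacked bar per library (x, replicates 1 to 3 within each label). Mcl1 gives way in part to Bcl2l1, from a mean of 91.5% in control to 70.7% in libraries labelled LATS1/2-KO, and Bcl2l11 gives way to Pmaip1.

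The 15 other genes of the family and its relatives were read from the same fit. Of 13 tested, 3 were higher (Bok, Bcl2l15, Bcl2a1a), 5 lower (Bcl2l2, Bik, Bcl2l12, Bcl2l14, Bnip3) and 5 did not pass in libraries labelled LATS1/2-KO against control, and their median log2 fold change was 0.04. The shares of all genes in this comparison were 28.7% higher and 27.1% lower. Bok, an effector-like member that localizes mainly to the endoplasmic reticulum, had normalized counts of 49.87, 68.04 and 98.32 in control, 417.2, 846.4 and 1064 in libraries labelled LATS1/2-KO and 358.3, 443.4 and 487.3 in those labelled LATS1/2-Sox9-KO. It was 10.8-fold and 5.96-fold higher than control (edgeR adjusted p = 5.19e-05 and 2.20e-04), with no overlap. Bcl2l2, which encodes the prosurvival protein BCL-W, had 6546, 5963 and 6137 in control, 2898, 3076 and 3675 in libraries labelled LATS1/2-KO and 2836, 2779 and 2836 in those labelled LATS1/2-Sox9-KO, a fall of 1.93-fold and 2.21-fold (edgeR adjusted p = 6.43e-05 and 1.69e-05). Among the 7 prosurvival genes tested, Bcl2l2 and Mcl1 were thus lower and Bcl2l1 and Bcl2a1a higher. Bik, a BH3-only gene, fell by 0.77 and 1.28 on the log2 scale (edgeR adjusted p = 0.00835 and 4.15e-04), whereas Bad, another, was at 0.30 and 0.25 and did not pass (edgeR adjusted p = 0.0584 and 0.105), though it passed without control replicate 3 (0.41 and 0.38, edgeR adjusted p = 0.0197 and 0.0261). Bcl2l14 fell by 3.52 and Bnip3, a mitophagy receptor, by 1.18 in libraries labelled LATS1/2-KO (edgeR adjusted p = 7.13e-05 and 0.00957). Between the deletion genotypes, Bnip3 was the only gene among the 13 to pass, at -1.33 (edgeR adjusted p = 0.0396), and did not pass without replicate 1 labelled LATS1/2-Sox9-KO (-1.04, edgeR adjusted p = 0.1). Of all genes 6.45% passed in that comparison. Bcl2a1a had at most 1.134 normalized counts in any control library and from 14.85 to 63.54 in the deletion libraries, but it shares near-identical copies with Bcl2a1b and Bcl2a1d, neither of which passed, so its reads may be split between them. Bcl2l10 and Hrk had at most 9.109 normalized counts in any library and were not tested.

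Downstream of the mitochondrial pore, cytochrome c and APAF1 form the apoptosome, which activates the initiator caspase of this route. Of 14 apoptosome, mitochondrial factor and caspase genes, 5 were higher and 3 lower in libraries labelled LATS1/2-KO compared with control, and the list's median log2 fold change was 0.12. Among all genes 28.7% were higher and 27.1% lower. Apaf1, the apoptosome scaffold, rose from 946.4, 1129 and 827.6 normalized counts in control to 2657, 1989 and 2062 in libraries labelled LATS1/2-KO (log2 fold change 1.21, edgeR adjusted p = 1.17e-04), and Dffb, the caspase-activated DNase, rose by 1.09 (edgeR adjusted p = 7.97e-04). Casp9, the initiator caspase, fell from 1284, 1403 and 1553 to 490.4, 538.9 and 693.1 (-1.30, edgeR adjusted p = 1.22e-04), and Endog and Parp1 fell by 0.91 and 0.50 (edgeR adjusted p = 0.00301 and 0.00923). The scaffold was thus higher while the initiator caspase it activates was lower.

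Inhibitor of apoptosis proteins bind caspases or their activating complexes. Of 9 tested, 1 was higher and 6 lower in libraries labelled LATS1/2-KO, and the list's median log2 fold change was -0.92 against 0.04 for all genes. Of all genes 28.7% were higher and 27.1% lower. Birc5, which encodes survivin and is also a mitotic gene, rose from 116, 178 and 95.83 to 2106, 2255 and 2171 normalized counts (16.8-fold, edgeR adjusted p = 1.82e-06). Birc3 fell from 10300, 9150 and 7128 to 2832, 2089 and 2464 (3.60-fold, edgeR adjusted p = 6.99e-05). Naip5, Naip2 and Naip6, which sense bacterial proteins, fell by 3.84, 3.64 and 2.47 on the log2 scale, and since they are near-identical copies their reads may be split. Xiap, the direct caspase inhibitor, was at 0.08 (95% interval -0.14 to 0.29, edgeR adjusted p = 0.538). None of the 9 differed between the deletion genotypes at an adjusted p of at most 0.05, where only 6.45% of all genes passed.

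In the death receptor arm upstream of BID, 2 of 8 tested genes were higher and 2 lower in libraries labelled LATS1/2-KO, close to the shares of all genes (28.7% and 27.1%). Tnfrsf10b, a TRAIL receptor, rose from 1156, 997.9 and 1095 to 3524, 2274 and 2943 normalized counts (2.69-fold, edgeR adjusted p = 4.28e-05). Casp8 rose from 2359, 2735 and 2924 to 5633, 3898 and 3727 (1.65-fold, edgeR adjusted p = 0.0035), and in libraries labelled LATS1/2-Sox9-KO both were higher than control by 1.93 and 1.16 on the log2 scale. Tnfrsf1a, the main TNF receptor, fell by 1.93 and Ripk1 by 0.45 in libraries labelled LATS1/2-KO (edgeR adjusted p = 1.29e-05 and 0.0124). Fas, another death receptor, was at 0.02 in libraries labelled LATS1/2-KO (95% interval -0.63 to 0.67). In those labelled LATS1/2-Sox9-KO it had 249.7, 192.3 and 178.5 normalized counts against 463.9, 412.8 and 338.5 in control, 1.96-fold lower without overlap (edgeR adjusted p = 0.017).

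Pmaip1, Bbc3 and Bax are textbook p53 targets, and 17 genes of p53 and its targets were read beside them. In libraries labelled LATS1/2-KO, 6 were higher, 5 lower and 6 did not pass, at a median log2 fold change of 0.21, and in those labelled LATS1/2-Sox9-KO 8 were higher and 4 lower, with a median of 0.87. Among all genes 28.7% were higher and 27.1% lower in the first comparison with control, and 29.3% and 28.7% in the second. The medians of all genes were 0.04 and 0.01. Phlda3 rose from 554.4, 523.9 and 990.7 to 6854, 2476 and 3753 normalized counts (6.32-fold), Perp by 4.17-fold and Mdm2 by 1.90-fold (edgeR adjusted p = 2.06e-04, 6.54e-05 and 0.00421). Trp53inp1 fell by 8.35-fold (38940, 31830 and 79560 in control against 8447, 4578 and 4971), Sesn2 by 2.74-fold and Btg2 by 2.57-fold (edgeR adjusted p = 6.66e-05, 0.00111 and 2.56e-05). Cdkn1a, the gene most used to read p53 activity, was at 0.21 in libraries labelled LATS1/2-KO (95% interval -0.43 to 0.84, edgeR adjusted p = 0.566), where replicate 1 had 19970 normalized counts and the others 7994 and 10950, against 9640, 10590 and 13490 in control. Without that replicate 1 Cdkn1a was at -0.24 (edgeR adjusted p = 0.298). In libraries labelled LATS1/2-Sox9-KO it had 18010, 21620 and 22040, above every control library and 1.83-fold higher (log2 fold change 0.87, edgeR adjusted p = 0.0244). Trp53 was at -0.26 in libraries labelled LATS1/2-KO (-0.86 to 0.34, edgeR adjusted p = 0.433), and at -0.66 (edgeR adjusted p = 0.0139) without replicate 1. Target genes of p53 moved in both directions, with Pmaip1 above every gene of the list in log2 fold change. Whether p53 had a part in the changes of Pmaip1, Bbc3 or Bax was not tested. None of the 17 differed between the deletion genotypes at an adjusted p of at most 0.05, where only 6.45% of all genes passed. Without replicate 1 labelled LATS1/2-KO 4 of them passed there, each higher in libraries labelled LATS1/2-Sox9-KO (Cdkn1a at 1.12, Trp53 at 0.90, Mdm2 at 0.68 and Aen at 0.59, edgeR adjusted p = 0.0121, 0.0225, 0.0313 and 0.0457).

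Among 8 tested transcriptional inducers of BH3-only genes, 2 were higher and 3 lower in libraries labelled LATS1/2-KO (28.7% and 27.1% of all genes). The 3 lower were the FOXO genes. Foxo3 went from 10420, 9589 and 8393 to 3852, 2341 and 3394 normalized counts (2.96-fold lower, edgeR adjusted p = 7.62e-05), Foxo4 fell by 0.82 and Foxo1 by 0.78 on the log2 scale (edgeR adjusted p = 0.00129 and 0.0309). Foxo4 was lower still in libraries labelled LATS1/2-Sox9-KO than in those labelled LATS1/2-KO (-0.63, edgeR adjusted p = 0.0403), a call lost without control replicate 3 or replicate 1 labelled LATS1/2-KO (edgeR adjusted p = 0.0515 and 0.0608). Foxo1 against control did not pass without replicate 1 labelled LATS1/2-KO (-0.68, edgeR adjusted p = 0.0887). E2f1, a cell cycle factor, rose 3.72-fold and Ddit3, which encodes the stress factor CHOP, 1.58-fold (edgeR adjusted p = 4.94e-04 and 0.0123). In libraries labelled LATS1/2-Sox9-KO 3 of the 8 inducers were higher than control and 2 lower (Foxo3, Foxo4), both past 2-fold. There 29.3% of all genes were higher and 28.7% lower. Foxo1 did not pass there, with 4114, 2254 and 1752 normalized counts against 4329, 4065 and 3511 in control. Of 8 tested turnover factors and binding partners, 4 were higher and 3 lower in libraries labelled LATS1/2-KO (28.7% and 27.1% of all genes). Dynll1, whose dynein light chain holds BIM at microtubules, rose from 5538, 5433 and 6617 to 16120, 14360 and 12920, while Dynll2, whose product holds BMF, fell from 12100, 9414 and 9248 to 4583, 3576 and 4859. Vdac2, which anchors BAK and BAX at mitochondria, and March5, a mitochondrial ubiquitin ligase, rose by 0.91 and 0.62. Btrc and Huwe1, ubiquitin ligases that act on MCL1 or BIM, fell by 1.84 and 0.92 (edgeR adjusted p = 2.41e-05 and 3.14e-05).

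**Figure D4:**
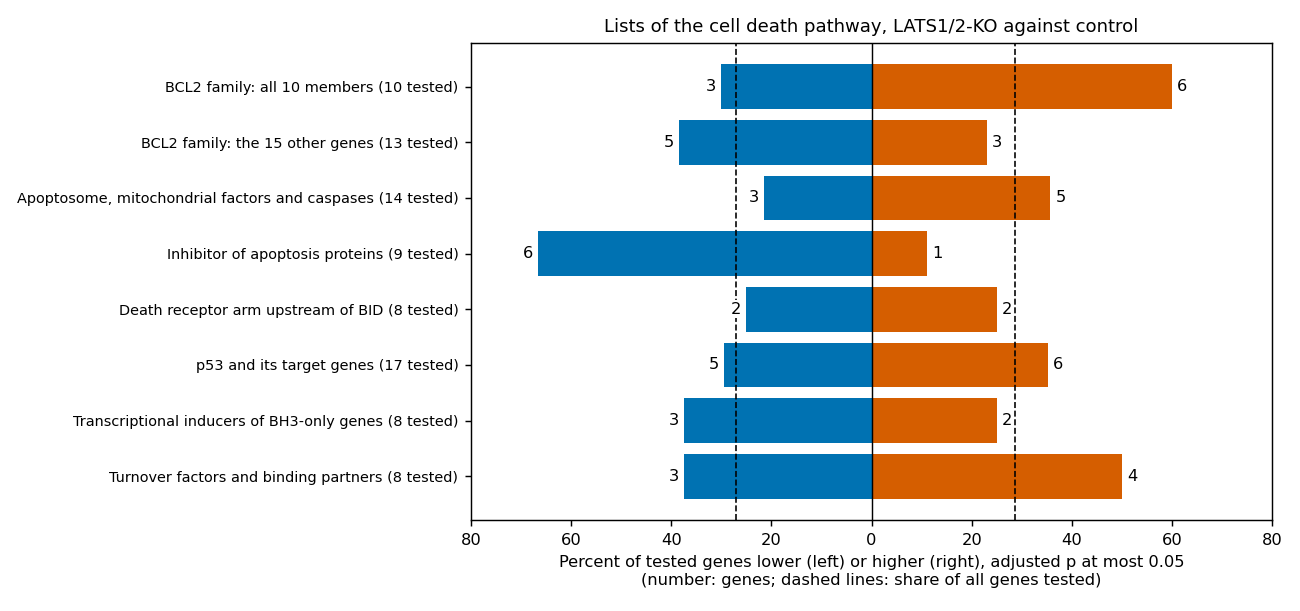
Share of the tested genes of each list (x, percent) that were lower (left) or higher (right) in libraries labelled LATS1/2-KO than in control at an edgeR adjusted p of at most 0.05, with the number of genes at each bar and dashed lines at the shares among all genes (27.1% lower, 28.7% higher). The 10 members have 6 higher and 3 lower, and the inhibitor of apoptosis proteins have 6 of 9 lower.

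For the 6 members past 2-fold in libraries labelled LATS1/2-KO, the genes with the most similar course over the 9 libraries were found by Pearson's r of log2 CPM among 11637 genes. Capn2, Cdc34 and Adam8 were nearest to Bak1 (r = 0.9985, 0.9965 and 0.9961) and Txn1, Hspb1 and Znhit6 to Bid (r = 0.9993, 0.9982 and 0.9982). Lgr6, Cx3cl1 and Egr3 were nearest to Bcl2l11 (r = 0.9965, 0.9948 and 0.9945) and Tmem44, Slc35f3 and Tmem123 to Bmf (r = 0.9977, 0.9904 and 0.9893). Stmn2, Cwh43 and Abcg2 followed Pmaip1 (r = 0.9943, 0.9933 and 0.9929), and Znhit3, Fam57a and Mrpl32 followed Bcl2l1 (r = 0.9946, 0.9928 and 0.9920). The 9 points fall into groups of 3, so these values mostly describe genes with the same order of group means, and they carry no p-value.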

How the data were processed

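RNA from EYFP+ sorted cells was sequenced from TruSeq RNA v2 libraries. Reads were aligned by the authors with STAR 2.6.0c (mm10). They deposited whole-number counts of uniquely aligned proper pairs per Ensembl gene from featureCounts (Subread 1.6.2), without mitochondrial genes, normalization or pooling. The methods count reads on the same strand, although the named kit does not mark strand, so reads of a gene and of an overlapping gene on the other strand may not be told apart. Groups and replicate numbers follow the labels. In R 4.3.3, counts were filtered by filterByExpr, normalized by TMM and fitted with the 3 group means in edgeR 4.0.16 (quasi-likelihood F test, all 9 libraries, Benjamini-Hochberg adjustment over 19357 genes). A gene passed at an adjusted p of at most 0.05, and the 2-fold rule also asked for an absolute log2 fold change above 1. The study's own test, DESeq2, served as an alternative (version 1.42.0). Levels per kb use the union of exons in GENCODE M21 (GRCm38), in which 55190 of the 55450 genes were found. Promoter windows are those of RefSeq (GRCm38.p6). No window for Pmaip1 was among those searched.

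The members and the gene lists were chosen with earlier results of these data known, so the counts over lists are descriptions and no list was tested as a set. The text names the members, the 15 other family genes and the targeted genes. It also names up to 3 genes with the largest rise and up to 3 with the largest fall among those that passed in each other list in LATS1/2-KO against control, and for each member past 2-fold there the 3 genes most correlated with it. The correlated genes needed a mean count of at least 100. A gene that this rule names is not reported here. Genes outside this rule (Xiap, Birc3, Fas, Cdkn1a, Trp53, Aen, Krt5, Trp63 and other cell type markers) were named after their values were seen. A search of the proteins for the BH3 pattern was not run. On simulated counts with 200 genes changed 4-fold, edgeR recovered 86% of them in LATS1/2-KO against control and called 7 unchanged genes among the 18786 tested. The depth makes counting error small for the members, and n = 3 per group sets the precision. An exact permutation test of 3 against 3 libraries cannot go below p = 0.1, so none was used.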

Additional observations from a re-analysis of the deposited data

How the results depend on the processing

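Each of 30 log2 fold changes of the members was recomputed under 19 alternatives, and of the 570 values 547 kept their direction and their side of the threshold. All calls of members against control kept direction and call in these 19 analyses, except Bbc3 in LATS1/2-KO (values given with the gene). Bcl2, which did not pass, turned to -0.12 with an offset for GC content, to -0.08 with the GC offset and the replicate block and to -0.16 without control replicate 3. Between the deletion genotypes Mcl1 turned to -0.02 with upper-quartile factors and without LATS1/2-KO replicate 3, and to 0 without LATS1/2-Sox9-KO replicate 1, and Bbc3 to -0.15 without the latter library. Over the 9 analyses that leave out a library Bcl2 lay between -0.16 and 0.29, Mcl1 between -0.02 and 0.08 and Bbc3 between -0.15 and 0.38. The cause was not tested. The GC offset raised Bak1 and Bax in LATS1/2-KO against control from 1.11 to 1.61 and from 0.93 to 1.43, Bbc3 from 0.76 to 1.25, and brought Bmf from -1.08 to -0.85.

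Tested with glmTreat against a fold change of 2, 1962 genes were higher and 2043 lower in LATS1/2-KO than in control, 2240 and 2468 in LATS1/2-Sox9-KO than in control, and 18 and 14 in LATS1/2-Sox9-KO than in LATS1/2-KO. These are fewer by construction than the 3314 and 3391, 3449 and 3799, and 301 and 418 of the threshold on the estimate. DESeq2 gave 489 and 744 genes between the deletion genotypes. Under the 2-fold rule, lower members in LATS1/2-KO against control were 1 in place of 2 with glmTreat, with the GC offset and with the GC offset and replicate block. With the GC offset, alone or with the block, higher members past 2-fold were 6 in place of 4 there (Bax and Bbc3 added) and 6 in place of 5 in LATS1/2-Sox9-KO against control. The single higher member between the deletion genotypes (Pmaip1) was lost, leaving 0, with the replicate block, with the GC offset and replicate block, with glmTreat and with only the 2 groups compared, and the single lower member (Bmf) was lost with glmTreat, leaving 0.

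Leaving out each library in turn, the genes past 2-fold numbered 121 to 497 higher and 78 to 582 lower between the deletion genotypes. Members that passed there ranged from 1 to 4 higher and 0 to 1 lower, and past 2-fold from 0 to 1 in each direction. The lower member count past 2-fold in LATS1/2-KO against control ranged from 1 to 2. The lowest counts came without LATS1/2-KO replicate 3 (121 higher, 1 member higher) and without LATS1/2-Sox9-KO replicate 2 (78 lower, 1 member higher, 0 lower), and the 497 without LATS1/2-KO replicate 1. Same-numbered libraries correlated at -0.066 to 0.037 between control and the deletion genotypes. LATS1/2-KO and LATS1/2-Sox9-KO libraries correlated at 0.105 and 0.17 for numbers 1 and 2 and at -0.032 for number 3, against -0.164 to 0.05 for unlike numbers. Since number 3 stayed below 0.1 and the labels name no shared source, the numbers were not taken to pair the samples. The replicate block left Pmaip1 between the deletion genotypes at 1.28 (edgeR adjusted p = 0.078) and changed no other call of a member. No alternative moved the median of all genes by over 0.1 on the log2 scale. Of the recomputed counts over gene lists, 754 stayed close to the main count and 44 moved by more than 1.5 times or to or from 0.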
